A study of Mus musculus with 24 samples.

Results

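The effect of ovariectomy on the inflamed gingiva was examined by comparing 4 gingival poly(A) RNA-seq libraries of ovariectomized mice given vehicle (OVX) with 4 of sham-operated mice given vehicle (Sham), taken by their titles from the 24 libraries of the study. All animals were wild-type female C57BL/6J mice, aged 11 weeks at the start, and all of them, Sham included, had experimental periodontitis. Surgery was bilateral ovariectomy or a sham operation on day 0, corn oil vehicle (100 µL) was given from day 4, a silk ligature was tied around the maxillary second molars on day 7, and tissue was taken on day 14. A further 4 gingival libraries came from ovariectomized mice that received estradiol benzoate at 1 µg per day in the same oil (OVXE2). They entered the model to estimate the spread, and their levels are given where they bear on a gene. The comparison therefore asks what ovarian hormone loss changes in gingiva that already carries a ligature. Libraries of unligated gingiva were not analysed here, and neither were hormone levels. Replicates are described as biological, but not as separate animals, so p-values measure the spread between these libraries.

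Estrogens act mainly through nuclear receptors that bind DNA as dimers at estrogen response elements or tether to other transcription factors, and ovariectomy removes their main source. In the gingiva a stratified epithelium keratinizes towards the oral cavity and forms the junctional epithelium against the tooth, over a connective tissue of fibroblasts and collagen. A ligature gathers a bacterial biofilm, which draws neutrophils, T cells and macrophages into both layers, and RANKL made in the inflamed tissue drives osteoclasts to resorb the alveolar bone. Interferon gamma from lymphocytes induces guanylate-binding proteins, immunity-related GTPases, class I antigen presentation and the chemokines Cxcl9 and Cxcl10, whereas type I interferon and viral RNA sensing also raise the antiviral genes Isg15 and the Oas family.

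Gene counts totalled 18598422 to 24070492 per library in OVX and 19992438 to 26001342 in Sham. The epithelial keratin gene Krt13 stood at 50645 to 61461 CPM (counts scaled to a common library size) in OVX and 60771 to 82870 CPM in Sham, and the junctional epithelium gene Odam at 315 to 348 CPM in OVX and 238 to 307 CPM in Sham, so epithelium of the labelled tissue was present in all 8 libraries. Tissues next to the gingiva were also present. Summed over 21 muscle genes, skeletal muscle transcripts took 1054 to 3592 CPM in OVX and 512 to 3100 CPM in Sham, and 10 salivary and mucous gland genes took 1035 to 4241 CPM in OVX and 3260 to 11597 CPM in Sham. Dspp, the dentin gene, was near the floor, at 0.125 to 0.561 CPM in OVX and 0.638 to 1.23 CPM in Sham. Its groups did not overlap (3.53% of all genes on the lower side), and its log2 change was −1.33. OVX 2 and Sham 3 stood apart: OVX 2 was the highest of the 8 libraries for 20.4% and the lowest for 20.6% of genes tested, and Sham 3 for 19.9 and 20.3%, against 6.75 to 12.9 and 5.93 to 15% in the other 6. Sham 3 was the lowest library for 20 of 24 fibroblast genes and the highest for 13 of 23 suprabasal keratinocyte genes, and it held the most gland RNA. It was also the lowest library for 8 of 10 basal keratinocyte genes. Reads of the uncounted strand made up 3.81 to 8.47% in OVX and 4.76 to 8.24% in Sham and were fewest in OVX 4 and Sham 3. In bulk samples such as these, fewer cells of a type and less RNA per cell cannot be told apart.

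No single gene passed the test between OVX and Sham gingiva. Of 12680 genes tested with edgeR's quasi-likelihood test, 0 were called higher (0%) and 0 lower (0%) at a Benjamini-Hochberg adjusted p under 0.05, and the smallest adjusted p was 0.376. At an unadjusted p under 0.05 there were 642 higher genes (5.06%) and 888 lower ones (7%). The 4 OVX values all lay above the 4 Sham values for 281 genes (2.22%) and all below them for 447 (3.53%). Without Sham 3 and without OVX 2 the genes at that unadjusted p numbered 845 and 885, against 1530 with all libraries. limma-voom also called 0 genes, with 1386 at an unadjusted p under 0.05. DESeq2's Wald test called 24, of which 5 were higher and 19 lower in OVX. The estimates were fairly tight: the 95% interval of the log2 change lay inside a 2-fold change in either direction for 10551 genes (83.2%) and inside 1.5-fold for 8109 (64.0%). The median log2 change over all genes was 0.01, with 6570 genes higher and 6110 lower. Every change below is therefore given as a value that did not pass adjustment over all genes, with its error.

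The smallest p of all genes belonged to S100a8, which with S100a9 encodes the calprotectin heterodimer, an antimicrobial alarmin abundant in neutrophils and made by inflamed epithelium. S100a8 (ENSMUSG00000056054, GRCm38 chromosome 3, 90668978 to 90670035, plus strand) stood at 1199, 1096, 958 and 1282 CPM in OVX 1 to 4, against 786, 733, 657 and 570 CPM in Sham 1 to 4. Every OVX library lay above every Sham library, which was a condition for naming it among the leading genes. The log2 change was 0.72 ± 0.13 (SE; 95% interval 0.44 to 1.00) with an unadjusted p of 9.5e-05 and an adjusted p of 0.376. S100a9 (ENSMUSG00000056071, chromosome 3, 90692632 to 90695721, minus strand) stood at 1624, 1331, 1401 and 2096 CPM in OVX and 1207, 977, 875 and 915 CPM in Sham. Its groups did not overlap either, OVX 4 was the highest library, and the log2 change was 0.70 ± 0.16. DESeq2 called both genes higher, with adjusted p of 0.000114 and 0.00349. Without Sham 3 the log2 changes were 0.71 and 0.65.

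The remaining neutrophil genes did not separate the groups in sum. Of 17 neutrophil genes tested, 12 were higher and 5 lower in OVX with a median log2 change of 0.27, and 3 had an unadjusted p under 0.05, all higher (5.06% of all genes): S100a8, S100a9 and Padi4, which citrullinates histones. Without the calprotectin genes, 10 of the other 15 were higher and 5 lower with a median of 0.10, and their summed level was 370 to 471 CPM in OVX and 287 to 517 CPM in Sham, so the groups overlapped. The chemokine receptor gene Cxcr2 stood at 14.4, 22, 21 and 20.9 CPM in OVX and 23, 18, 13.5 and 20.2 CPM in Sham, with a log2 change of 0.06 ± 0.19. The granule collagenase gene Mmp8 and the gelatinase gene Mmp9 had log2 changes of −0.26 ± 0.43 and 0.01 ± 0.25. With single libraries left out, the median of the list lay between 0.08 (without Sham 3) and 0.39 (without OVX 1).

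**Figure D1:**
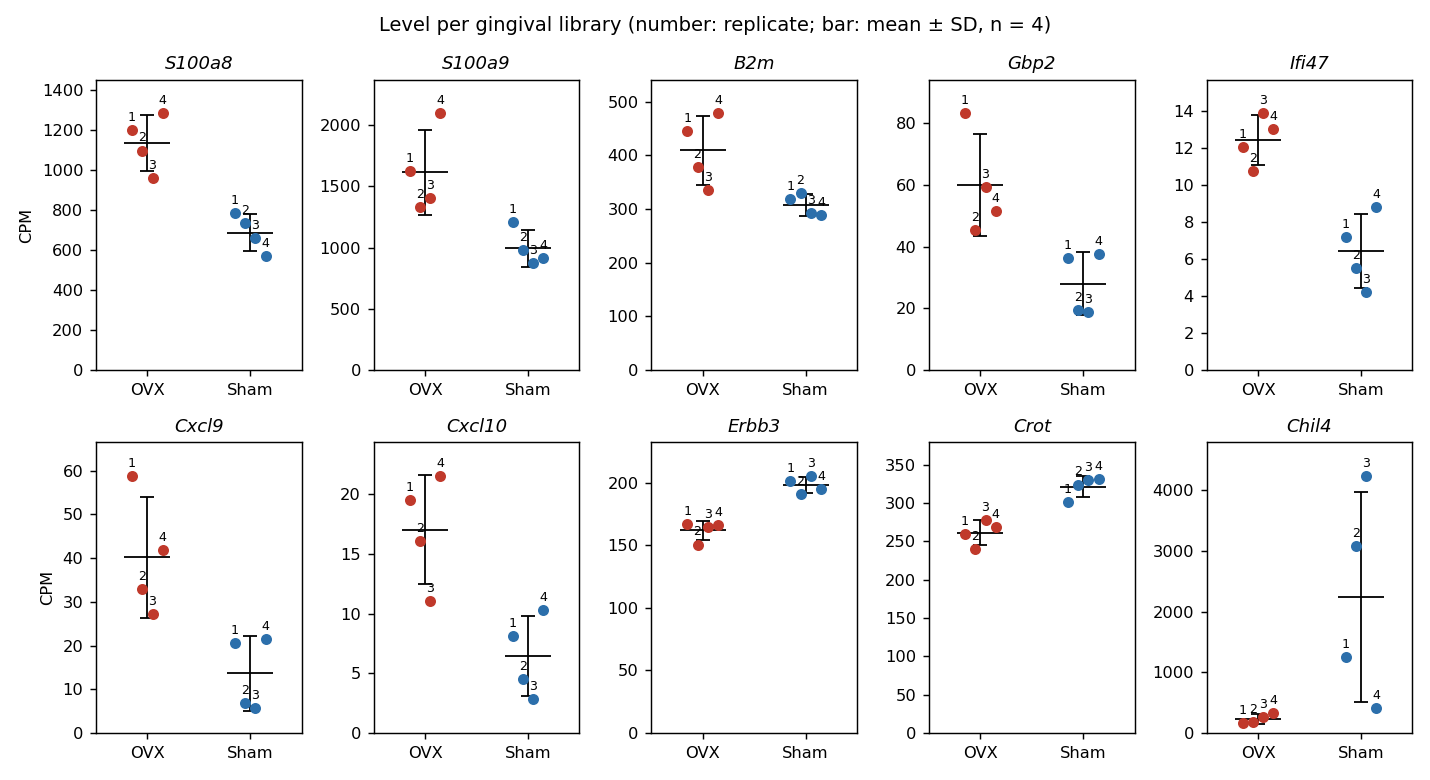
Level in CPM (y axis, from 0) of 10 genes in the 4 OVX (left, red) and 4 Sham (right, blue) gingival libraries; numbers are replicates and bars the mean ± SD (n = 4). The groups do not overlap for any of these genes, a condition by which all but Cxcl9 and Cxcl10 were picked. Chil4 spreads from 411 to 4237 CPM within Sham.

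Several genes known to be induced by interferon gamma had higher values in OVX, with estimates near 2-fold. The guanylate-binding protein gene Gbp2 (ENSMUSG00000028270, chromosome 3, 142620602 to 142638008, plus strand), whose product attacks pathogen vacuoles, stood at 83.2, 45.5, 59.2 and 51.6 CPM in OVX and 36.4, 19.5, 18.7 and 37.5 CPM in Sham. All 4 OVX libraries exceeded all 4 Sham libraries, and the log2 change was 1.09 ± 0.26 (adjusted p of 0.376). Ifi47 (ENSMUSG00000078920, chromosome 11, 49076587 to 49096974, plus strand), an immunity-related GTPase, stood at 12, 10.8, 13.9 and 13 CPM in OVX and 7.18, 5.50, 4.21 and 8.82 CPM in Sham, again without overlap, with a log2 change of 0.94 ± 0.21. Tgtp1, another GTPase of that family with a close copy in the genome, had a log2 change of 1.30 ± 0.34.

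The CXCR3 ligands followed the same order of groups. Cxcl9 (ENSMUSG00000029417, chromosome 5, 92321347 to 92328079, minus strand), which attracts activated T cells, stood at 58.8, 33.0, 27.2 and 41.8 CPM in OVX and 20.5, 6.87, 5.70 and 21.5 CPM in Sham. Its log2 change was 1.55 ± 0.47, and 1.31 without Sham 3. Cxcl10 (ENSMUSG00000034855, chromosome 5, 92346638 to 92348889, minus strand) stood at 19.5, 16.1, 11.1 and 21.5 CPM in OVX and 8.10, 4.50, 2.88 and 10.3 CPM in Sham, with a log2 change of 1.39 ± 0.40. Neither gene overlapped between the groups, and within Sham both were lower in Sham 2 and Sham 3 than in Sham 1 and Sham 4. B2m (ENSMUSG00000060802, chromosome 2, 122147686 to 122153083, plus strand), the light chain of class I antigen-presenting molecules, stood at 445, 378, 336 and 478 CPM in OVX and 318, 330, 293 and 289 CPM in Sham, without overlap, with a log2 change of 0.41 ± 0.10.

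Of 27 interferon-induced genes tested, 17 were higher and 10 lower in OVX, and the median log2 change was 0.34 against 0.01 over all genes. 10 had an unadjusted p under 0.05, all higher (5.06% of all genes were), and 5 did not overlap, also all higher (2.22% of all genes). The list was split into families after its values had been seen, so the split is a description only. All 10 GTPases and CXCR3 ligands tested were higher, with log2 changes of 0.34 to 1.55 and a median of 0.94, and Irf1, the transcription factor of this response, had 0.46 ± 0.13 without overlap. The 10 antiviral genes, chosen because they were lower (among them Isg15, Usp18, Irf7 and Oas1a), had log2 changes of −0.55 to −0.14, and their highest library was Sham 3 in 10 of 10 cases. Isg15, a ubiquitin-like modifier, stood at 22.9, 16, 4.75 and 7.73 CPM in OVX and 4.99, 6.59, 47.0 and 17.2 CPM in Sham, with groups that overlapped widely and a log2 change of −0.55 ± 0.67. Stat2, a signal transducer of type I interferon, had 0.01 ± 0.18. Without Sham 3 the median of the whole list was 0.38, and without OVX 1, the library with most Gbp2 and Cxcl9, it was 0.18.

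**Figure D2:**
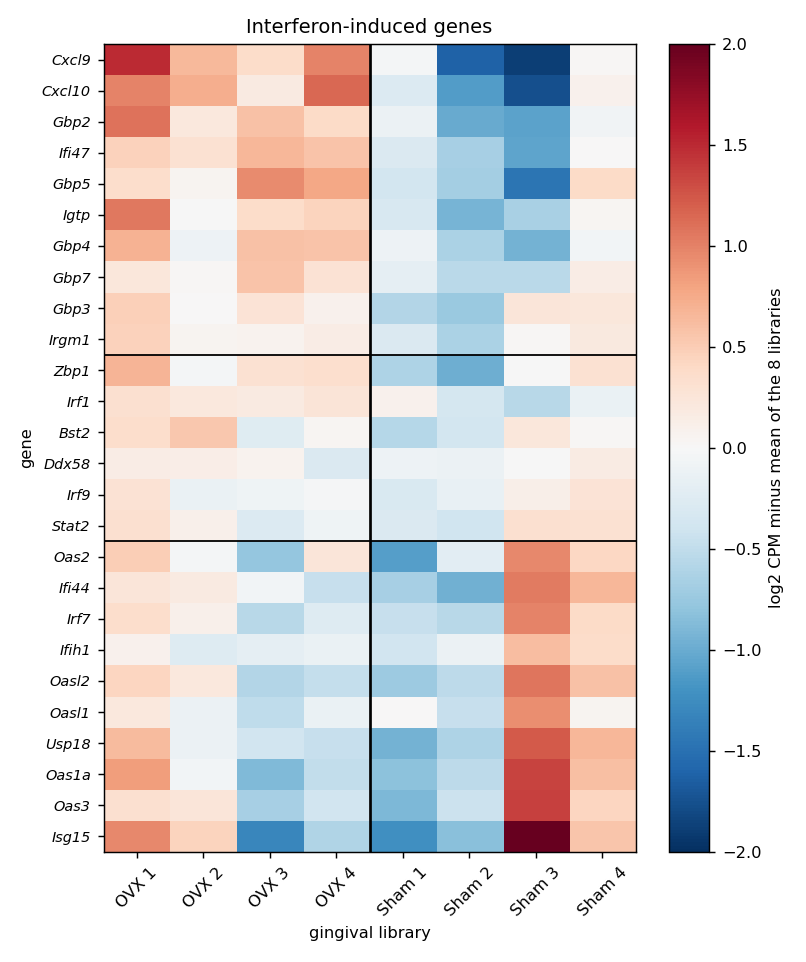
Log2 CPM of interferon-induced genes (rows) in the 4 OVX and 4 Sham gingival libraries (columns), each gene minus its mean over the 8 libraries; red is higher, blue lower. Lines part GTPases and CXCR3 ligands (top), other genes, and antiviral genes (bottom), which were highest in Sham 3 in 10 of 10 cases.

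The promoters of 3 of these GTPase genes are shown because interferon is known to act on this family through short promoter elements. The stretches are the 100 bases before the RefSeq start of each gene on its own strand (GRCm38.p6), and capitals mark matches to the core of the interferon-stimulated response element, which is a repeat of GAAA after 2 bases of any kind on either strand, and to the gamma-activated site, TTCNNNGAA. Gbp2 lies at chr3:142620563-142620662 (plus strand), Igtp, an immunity-related GTPase, at chr11:58199456-58199555 (plus strand), and Irgm1, a regulator of those GTPases, at chr11:48871421-48871520 (minus strand).
Gbp2: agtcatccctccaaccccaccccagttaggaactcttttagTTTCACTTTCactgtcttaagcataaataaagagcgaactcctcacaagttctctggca
Igtp: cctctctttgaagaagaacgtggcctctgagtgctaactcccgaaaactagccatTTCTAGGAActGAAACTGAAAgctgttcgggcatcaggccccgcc
Irgm1: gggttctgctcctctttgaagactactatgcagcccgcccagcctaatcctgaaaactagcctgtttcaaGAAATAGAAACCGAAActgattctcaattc
Gbp2 holds the response element on the opposite strand starting at position −59, Igtp holds it at −34 beside a gamma-activated site at −45, and Irgm1 holds 2 overlapping copies at −30 and −24. Igtp stood at 27.7, 13.3, 17.1 and 18 CPM in OVX and 10.6, 6.99, 8.42 and 13.6 CPM in Sham, with only OVX 2 inside the Sham range and a log2 change of 0.94 ± 0.26. Irgm1 had a smaller log2 change of 0.34 ± 0.16 with overlap. Within the 250 bases before the start, the response element core occurred in 12 of the 22 list genes with a promoter in the RefSeq table. Among them were Cxcl10 of the higher and Isg15 and Oas1a of the lower genes. The 3 genes shown are also among them, whereas Ifi47, Cxcl9 and Irf1 are not, for want of a match or of a promoter. The core occurred in 2.98% of all 32851 promoters and in 2.65% of the 11786 promoters of tested genes. The gamma-activated site occurred in 6 of the 22 list genes, in 7.02% of all promoters and in 5.89% of those of tested genes. A list gene counted if any of its promoters matched, whereas the shares are per promoter. A match is only a sequence description and says nothing of binding in these samples.

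Among the other genes of smallest p that stood higher in OVX were Cd52, a leukocyte surface glycoprotein, Ltb4r1, a leukotriene B4 receptor, Igfbp3, the main carrier of insulin-like growth factors, and Ifi209, an interferon-inducible DNA-binding protein. Cd52 stood at 23, 28, 22.2 and 26.5 CPM in OVX and 16.5, 17.2, 14.7 and 16.4 CPM in Sham, with a log2 change of 0.62 ± 0.12. Igfbp3 (ENSMUSG00000020427, chromosome 11, 7206086 to 7213923, minus strand) stood at 510, 662, 444 and 546 CPM in OVX and 436, 330, 276 and 379 CPM in Sham, with a log2 change of 0.60 ± 0.15. In both genes the lowest OVX library was above the highest Sham library. Smaller estimates without overlap were those of the microtubule-binding gene Spef1 (0.38 ± 0.07), the interferon-inducible Ifi209 (0.35 ± 0.09), Rilpl2, a regulator of ciliary membrane content (0.32 ± 0.09), the Golgi lipid-binding gene Plekha3 (0.29 ± 0.07), Gramd1a of cholesterol transport (0.25 ± 0.06) and Ltb4r1 (0.24 ± 0.06). These genes and the leading genes that stood lower, Chil4 included, were picked for small p and for separate groups. The same holds for S100a8, S100a9, Gbp2, Ifi47, Tgtp1 and B2m above. Neither property therefore supports any of them.

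Most of the leading genes that stood lower in OVX showed small and tight differences. Erbb3 (ENSMUSG00000018166, chromosome 10, 128567523 to 128589652, minus strand), a neuregulin receptor of epithelia and glia, stood at 167, 150, 165 and 166 CPM in OVX and 201, 191, 205 and 195 CPM in Sham. The log2 change was −0.29 ± 0.05, with an unadjusted p of 0.00017, and OVX 2 was the lowest library. Crot (ENSMUSG00000003623, chromosome 5, 8966033 to 8997324, minus strand), the peroxisomal carnitine octanoyltransferase, stood at 260, 240, 278 and 268 CPM in OVX and 301, 324, 330 and 332 CPM in Sham, a log2 change of −0.30 ± 0.06. Both genes separated the groups, and both were among the 24 that DESeq2 called.

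Chil4 had the largest estimate of the leading genes. Chil4 (ENSMUSG00000063779, chromosome 3, 106201490 to 106219507, minus strand), a secreted chitinase-like protein of mouse mucosa and type 2 responses with close paralogs such as Chil3, stood at 159, 173, 261 and 326 CPM in OVX and 1246, 3081, 4237 and 411 CPM in Sham. The groups did not overlap, but the Sham libraries themselves differed widely, Sham 4 lying near the OVX range. The log2 change was −3.29 ± 0.76, and −2.77 without Sham 3. Chil3, a macrophage-made paralog, stood at 0.906, 2.17, 1.04 and 1.66 CPM in OVX and 5.23, 3.70, 2.72 and 1.58 CPM in Sham, with a log2 change of −1.20 ± 0.49. How reads of near-identical stretches fell between the paralogs was not tested. Il1rl2, a subunit of the IL-36 receptor of keratinocytes, had a log2 change of −0.27 ± 0.06, the epithelial shape gene Shroom3 −0.41 ± 0.10, the noradrenaline transporter gene Slc6a2 −0.76 ± 0.18 and the synaptic and junctional scaffold gene Dlg2 −0.35 ± 0.07. The remaining leading genes, March7, Fbxo8, Slu7, Clpx, Atp9a, Lpar5 and Dhx32, had log2 changes between −0.34 and −0.16.

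**Figure D3:**
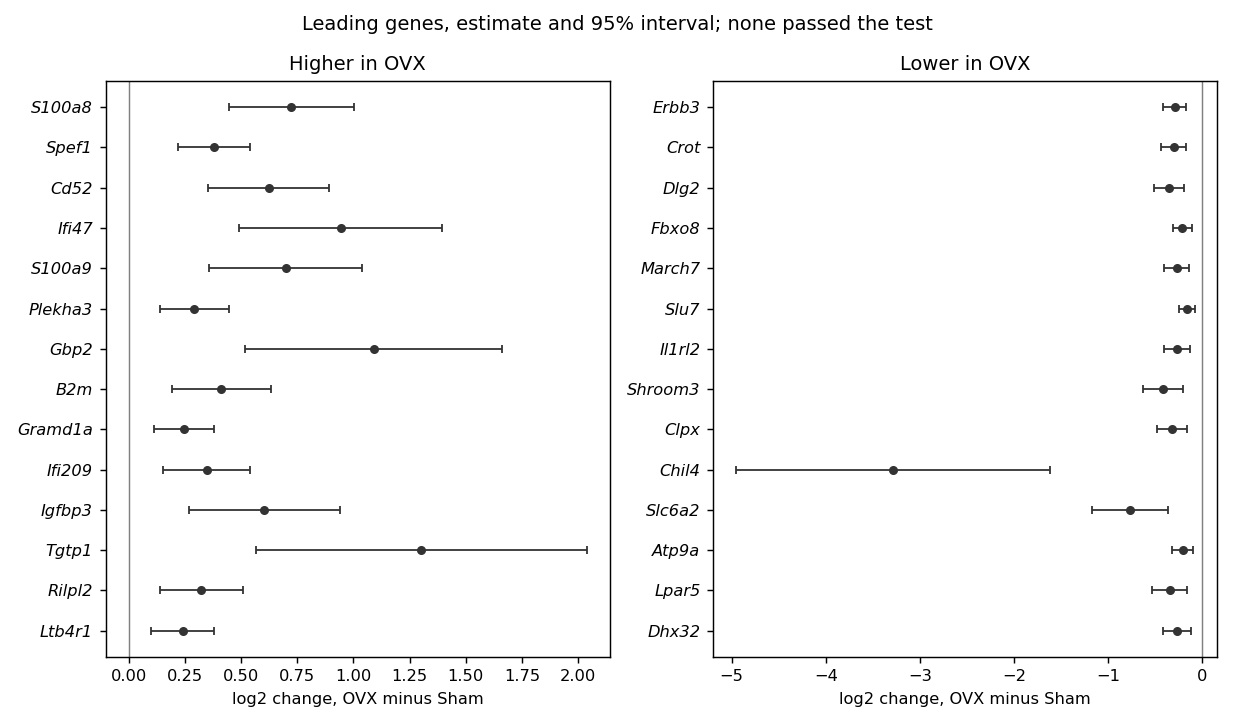
Log2 change, OVX minus Sham (x axis), with its 95% interval for leading genes higher (left) and lower (right) in OVX, ordered by p. Most estimates lie within 1 log2 unit of 0, Chil4 stands out at −3.29, and no gene passed adjustment over all 12680 genes.

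Chemokines stood higher in OVX in 24 of 27 cases, with a median log2 change of 0.33 that was 0.26 without Sham 3 and 0.54 without OVX 1. 7 had an unadjusted p under 0.05, all higher (5.06% of all genes), and 4 did not overlap, all higher (2.22% of all genes): Cxcl9, Cxcl10, Cxcl2 and Cxcl16. The neutrophil attractant Cxcl2 stood at 26.9, 26.2, 26 and 26.6 CPM in OVX and 21, 22.2, 8.32 and 19 CPM in Sham, a log2 change of 0.58 ± 0.31. The OVX libraries were nearly equal and Sham 3 lay far below the other Sham libraries; without it the log2 change was 0.36. The related Cxcl1 and Cxcl5 had log2 changes of 0.64 ± 0.26 and 0.33 ± 0.32, and the monocyte attractants Ccl2 and Ccl8 had 0.75 ± 0.32 and 0.69 ± 0.23, each with overlap. Sham 3 was the lowest of the 8 libraries for 15 of the 27 chemokines, and the part of its low fibroblast and high gland content in these values was not tested.

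Most cytokine genes of periodontitis had overlapping groups. Il1b stood at 33.9, 97.4, 47.5 and 75.3 CPM in OVX and 54.8, 51.8, 26.9 and 64.5 CPM in Sham, with a log2 change of 0.36 ± 0.45. Il6, with 0.906 to 2.00 CPM in OVX and 0.160 to 2.73 CPM in Sham, had 0.39 ± 0.74. The T cell cytokine Il17a stood at 0.647, 1.33, 1.04 and 2.41 CPM in OVX and 0.598, 0.241, 0.373 and 1.04 CPM in Sham, a log2 change of 1.24 ± 0.50 with an unadjusted p of 0.0289 and an adjusted p of 0.393. OVX 4 was the highest library and Sham 4 the highest of its group, and the values are near 1 CPM, where counting error is large. Its relative Il17f and Il23a, a subunit of the cytokine that maintains IL-17 producers, had 1.21 ± 0.54 and 0.73 ± 0.31. Of 19 inflammatory cytokine genes, 16 were higher and 3 lower with a median of 0.27 (0.12 without Sham 3), and 1, Il23a, did not overlap (2.22% of all genes on the higher side).

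Macrophage and lymphocyte genes stood somewhat higher in OVX, with overlapping groups. Of 19 monocyte and macrophage genes 15 were higher and 4 lower, with a median log2 change of 0.40. The complement genes C1qa, C1qb and C1qc, made by resident macrophages, had log2 changes of 0.66 ± 0.18, 0.56 ± 0.16 and 0.45 ± 0.15, and the lysozyme gene Lyz2 had 0.73 ± 0.27. C1qa stood at 26, 50.4, 32.3 and 43.9 CPM in OVX and 21.7, 28.4, 22 and 24.6 CPM in Sham. OVX 1 lay inside the Sham range and OVX 2 and OVX 4 were highest. Arginase 1 (Arg1), which is also a keratinocyte gene, was the only member without overlap (3.53% of all genes on the lower side), at −0.25 ± 0.09. Of 21 T and NK cell genes 19 were higher and 2 lower, with a median of 0.45. Cd3d of the T cell receptor complex, the cytotoxic granule gene Gzmb and Cd8b1 had 0.74 ± 0.23, 1.07 ± 0.33 and 1.03 ± 0.38, all at levels below 5 CPM and all with overlap.

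B cell genes were highest in single libraries. Of 13 genes of B and plasma cells 10 were higher and 3 lower, the median log2 change was 1.96, and 8 had an unadjusted p under 0.05 on the higher side and 1 on the lower side (5.06 and 7% of all genes). None separated the groups. The immunoglobulin light chain gene Igkc stood at 4.36, 2.12, 84.4 and 22.1 CPM in OVX and 0.678, 1.00, 7.52 and 1.70 CPM in Sham, and OVX 3 was highest. Without OVX 3 the median of the list was 0.73.

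Estrogen receptors and known estrogen targets showed no common shift. Esr1 (ENSMUSG00000019768, chromosome 10, 4611593 to 5005614, plus strand), the estrogen receptor alpha gene, stood at 2.46, 2.44, 4.11 and 3.66 CPM in OVX and 2.07, 2.77, 2.77 and 3.81 CPM in Sham, with a log2 change of 0.15 ± 0.22 and a 95% interval of −0.34 to 0.64. Pgr (ENSMUSG00000031870, chromosome 9, 8899833 to 8968611, plus strand), the progesterone receptor gene that estrogen induces in uterus and breast, stood at 23.6, 18.3, 24.2 and 24.6 CPM in OVX and 22.5, 20.9, 17.1 and 34.2 CPM in Sham. The ranges overlapped, the log2 change was −0.06 ± 0.19, and its 95% interval was −0.48 to 0.36. The membrane estrogen receptor gene Gper1 had 0.37 ± 0.32. The genes Esr2 and Greb1 were not analysed here.

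Of 22 estrogen-responsive genes 14 were higher and 8 lower, with a median log2 change of 0.07. 2 were at an unadjusted p under 0.05 on the higher side (Rara, a retinoic acid receptor, at 0.20 ± 0.09, and the caveolin gene Cav1 at 0.25 ± 0.10) and 1 on the lower side (5.06 and 7% of all genes). That was the secreted glycoprotein gene Stc2, which stood at 9.71, 3.45, 7.10 and 8.23 CPM in OVX and 7.70, 8.48, 22.2 and 15.8 CPM in Sham. Its log2 change was −0.92 ± 0.42, with overlap, and −0.57 without Sham 3, and it was highest in Sham 3 and Sham 4, the libraries with most gland RNA, whose part in this value was not tested. No promoter of the 18 list genes with a RefSeq promoter held the palindromic estrogen response element (GGTCA, 3 bases of any kind, TGACC) within 250 bases. Of all promoters 0.0639% held it, and of those of tested genes 0.0085%. Of 13 steroid receptors and coregulators 5 were higher and 8 lower, with a median of −0.11.

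Genes of the RANKL pathway and of osteoclasts likewise showed no common shift, though single estimates differed. Tnfsf11, the RANKL gene itself, stood at 2.68, 7.00, 4.25 and 5.74 CPM in OVX and 4.19, 5.38, 1.33 and 2.89 CPM in Sham, with a log2 change of 0.50 ± 0.45 that was 0.25 without Sham 3. The 95% interval of Tnfsf11 was −0.49 to 1.48, so neither a rise nor a fall of this gene was excluded. The RANKL receptor gene Tnfrsf11a had −0.08 ± 0.16, the osteoclast acid phosphatase gene Acp5 0.01 ± 0.14 and the collagenolytic protease gene Ctsk 0.28 ± 0.25. Of 13 genes 9 were higher and 4 lower with a median of 0.01. The carbonic anhydrase gene Car2, which acidifies the resorption pit but is also made by epithelia and red cells, was the only one without overlap (3.53% of all genes on the lower side), at 14.3, 11.3, 12.8 and 13.8 CPM in OVX and 18.2, 16.7, 15.6 and 17.5 CPM in Sham (log2 change −0.38 ± 0.11).

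All 20 genes of cholesterol and fatty acid synthesis tested had lower estimates in OVX, with log2 changes from −0.43 to just under 0 and a median of −0.22. 9 had an unadjusted p under 0.05 (7% of all genes were lower at that p) and 5 did not overlap (3.53%), among them the sterol enzymes Fdft1, Lss and Sc5d and the citrate lyase gene Acly. Fdft1, the squalene synthase gene, stood at 177, 180, 132 and 169 CPM in OVX and 188, 190, 210 and 187 CPM in Sham, a log2 change of −0.24 ± 0.09 that was −0.14 without OVX 3. OVX 3 was the lowest library and Sham 3 the highest. Insig1, a sterol sensor, had the lowest estimate of the list at −0.43 ± 0.15. Sham 3, the library richest in suprabasal keratinocyte and gland RNA, was the highest of the 8 for 13 of the 20 genes. Without Sham 3 the median was −0.14, as it was without OVX 3. The part of epithelial and gland content in these values was not tested.

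Suprabasal keratinocyte genes stood lower in OVX in 18 of 23 cases, with a median of −0.18 that lay between −0.27 (without OVX 1) and −0.06 (without Sham 3). Tgm3, a transglutaminase of the cornified envelope, stood at 4510, 3773, 4321 and 4666 CPM in OVX and 4759, 5346, 7126 and 5275 CPM in Sham, a log2 change of −0.38 ± 0.13, and Dmkn, a secreted protein of differentiating epidermis, had −0.31 ± 0.11. These 2 did not overlap (3.53% of all genes on the lower side), and without Sham 3 their log2 changes were −0.24 and −0.19. Krt13 had −0.24 ± 0.13 (−0.13 without Sham 3). Of 9 genes of junctional epithelium and epithelial junctions tested, 1 was higher and 8 lower, with a median of −0.09. The higher one was Odam at 0.21 ± 0.13, without overlap (2.22% of all genes on the higher side). The tight junction scaffold gene Tjp1 had −0.25 ± 0.08 without overlap (3.53% of all genes on the lower side).

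Gland transcripts differed widely between libraries. Muc5b, the gel-forming mucin, stood at 3645, 770, 1262 and 3945 CPM in OVX and 2934, 3576, 11190 and 7543 CPM in Sham, a log2 change of −1.39 ± 0.65 that was −0.96 without Sham 3. Of 10 salivary and mucous gland genes 9 were lower in OVX, with a median of −0.58, and −0.33 without Sham 3. All 13 genes of nasal glands and olfactory mucosa were lower, with a median of −0.81, and 4 did not overlap (3.53% of all genes on the lower side), the odorant-binding genes Obp1a and Obp2a and the secretory genes Bpifb9a and Bpifb9b. The summed level of the nasal list was 80.6 to 111 CPM in OVX and 116 to 211 CPM in Sham, and Bpifb9b stood at 6.52, 6.31, 4.57 and 4.32 CPM in OVX and 11.3, 11.0, 9.76 and 8.09 CPM in Sham. Such genes belong to tissue above or beside the gingiva.

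**Figure D4:**
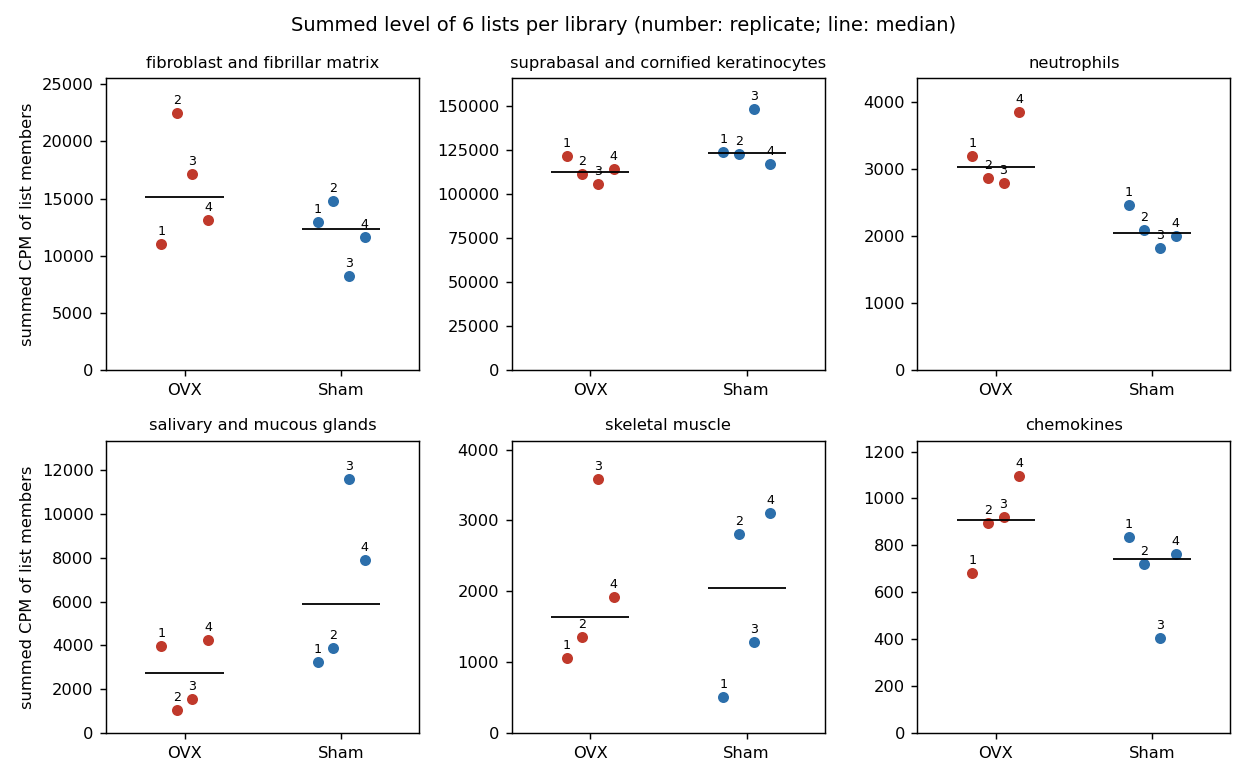
Summed level of the tested members of 6 lists (y axis, CPM from 0) in each of the 4 OVX (left) and 4 Sham (right) gingival libraries, with replicate numbers and the median as a line. Sham 3 is lowest for fibroblast genes and chemokines and highest for suprabasal keratinocyte and gland genes. The neutrophil sums, made up mostly of S100a8 and S100a9, do not overlap.

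Fibroblast and collagen genes stood higher in OVX in 24 of 24 cases, with a median log2 change of 0.42, though none separated the groups and 1 had an unadjusted p under 0.05 (5.06% of all genes on the higher side). Col1a1, the main fibrillar collagen chain, stood at 2760, 5635, 3984 and 2959 CPM in OVX and 3112, 3560, 1898 and 2655 CPM in Sham, a log2 change of 0.45 ± 0.30 that was 0.21 without OVX 2. OVX 2 was the highest and Sham 3 the lowest library of the list. Without OVX 2 the median was 0.21 and without Sham 3 it was 0.25. Matrix metalloproteinases and their inhibitors had a median of 0.32 (0.18 without OVX 2), endothelial genes 0.25 (0.11 without Sham 3) and Wnt and BMP genes 0.22, and in the last list Grem1, a BMP antagonist of stromal cells, did not overlap (2.22% of all genes on the higher side), at 27.6, 46.8, 40.1 and 47.5 CPM in OVX and 25.5, 27, 9.92 and 23.7 CPM in Sham. Skeletal muscle genes had a median of 0.07, the cell cycle 0.06, oxidative phosphorylation 0.05 and the circadian clock −0.02. Sham 3 was also the lowest library for 15 of 22 endothelial genes and 13 of 18 metalloproteinase genes, and the part of its tissue content in these values was not tested.

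**Figure D5:**
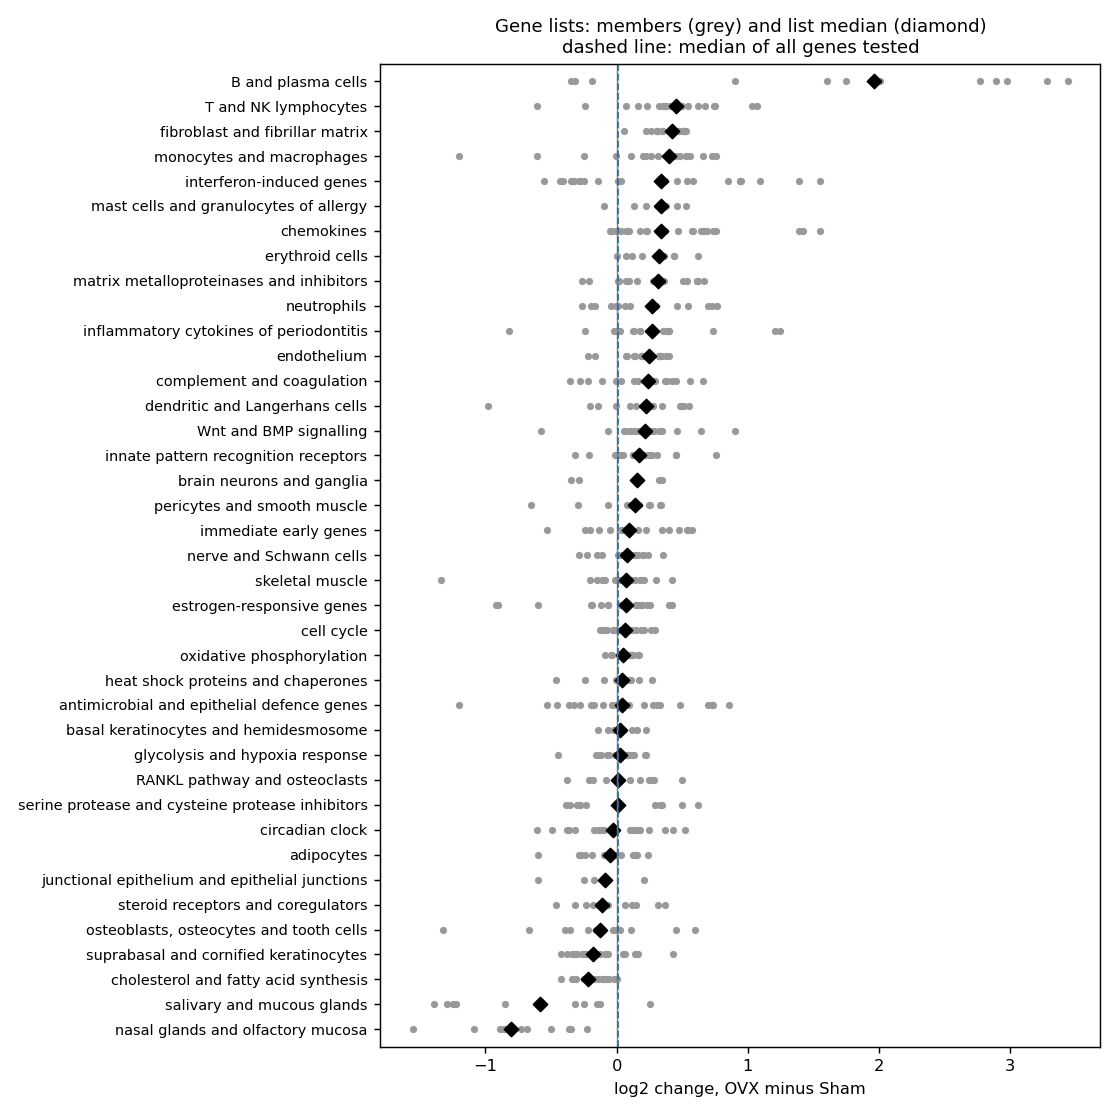
Log2 change, OVX minus Sham (x axis), of the tested members of 39 gene lists (grey points, 1 row per list) with the list median (diamond); the dashed line is the median of all 12680 genes. Medians run from −0.81 for nasal gland genes to 1.96 for B and plasma cells, where OVX 3 holds the most Igkc RNA.

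Estradiol-treated mice give a further reading of the same genes, although OVXE2 and Sham are both set against the same 4 OVX libraries, so the readings share those samples. The genes were also chosen with their OVX and Sham values known. In edgeR's test of OVXE2 minus OVX 0 genes passed, with adjusted p of 0.136 for Gbp2 and 0.144 for Cxcl9. The means below are therefore descriptions only. S100a8 averaged 1134 ± 140 CPM in OVX, 1098 ± 161 CPM in OVXE2 and 687 ± 94.0 CPM in Sham (SD, n = 4 each), so the OVXE2 level lay near that of OVX. S100a9 likewise averaged 1613 ± 345 CPM in OVX, 1669 ± 258 CPM in OVXE2 and 993.5 ± 148 CPM in Sham. For Gbp2 and Cxcl9 the OVXE2 mean was instead the lowest. Gbp2 averaged 59.9 ± 16.5 CPM in OVX, 18.8 ± 2.93 CPM in OVXE2 and 28.0 ± 10.3 CPM in Sham, and Cxcl9 averaged 40.2 ± 13.8 CPM in OVX, 4.65 ± 2.15 CPM in OVXE2 and 13.6 ± 8.50 CPM in Sham. Erbb3 averaged 162 ± 7.65 CPM in OVX, 188 ± 10.8 CPM in OVXE2 and 198 ± 6.50 CPM in Sham.

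The dentoalveolar complex (DAC), in which teeth sit in their alveolar bone, gave the same contrast from 8 further libraries. Of 14209 genes 0 (0%) passed the test for a difference in the OVX minus Sham change between gingiva and DAC. In that edgeR interaction test the smallest adjusted p was 0.575, and 1212 genes had an unadjusted p under 0.05. The 5 genes of smallest p were Trpm1, a melanocyte and neuron channel, the peptidase gene Dpp4, the secretory genes Gp2 and Bpifb2, and Myct1 of endothelium. Dpp4 had a log2 change of −0.49 ± 0.18 in gingiva and 0.67 ± 0.19 in DAC, a difference of −1.20 ± 0.28 in the joint fit. Gp2 and Bpifb2, both gland genes, had differences of −4.10 ± 0.99 and −4.42 ± 1.08. S100a8 had −0.08 ± 0.26 in DAC, with a difference of 0.77 ± 0.29 and an adjusted p of 0.575, so no difference between the tissues was shown. Gbp2 had 0.83 ± 0.39 in DAC, with a difference of 0.23 ± 0.49.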

How the data were processed

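Poly(A) RNA of gingiva was sequenced in pairs, per the labels' protocols. The submitters' processing notes name fastp for trimming, STAR for alignment, DESeq2 and the build GRCm38 (mm10). Versions and settings are not given in the sources. The authors deposited raw counts per gene, 1 table per library, with 38321 gene IDs. The opposite-strand column, which held most reads in every library, was used and the 4 lines of unassigned reads were left out (no feature 29.0 to 32.2%, several places 7.72 to 8.67% of fragments in OVX and Sham). Reads mapping to several places are not counted, which lowers genes with close copies. GENCODE M21 gave names to 38186 IDs and the coordinates.

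Counts of the 12 gingival libraries passed filterByExpr and TMM scaling before the quasi-likelihood test of edgeR 4.0.16 (robust glmQLFit, glmQLFTest) in R 4.3.3 with 9 residual degrees of freedom and a biological coefficient of variation of 0.164. The contrast was OVX minus Sham, two-sided, with Benjamini-Hochberg adjustment over all 12680 genes. CPM are TMM-scaled and are compared between samples, not between genes. The difference between tissues used all 24 libraries. DESeq2 1.42.0 and limma 3.58.1 were alternatives, with other scaling, no filter, the 8 libraries alone, unstranded counts, a replicate block and each library left out. The code was tested on simulated data. Libraries of a group differed beyond counting noise (chi-square per degree of freedom 18.1 to 76.5), so none is a copy.

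The genes and the 39 lists (901 symbols, 619 tested) were chosen with earlier results of these data known. Named by rule were 15 genes per direction with the smallest p, separate groups, an average of 1 log2 CPM or more and no predicted name, a panel of 32 genes (26 listed), and the 3 highest Sham members of each list. A part of them is printed, and some genes counted in the totals and lists are not reported here by name; other list members were named after their values had been seen. Genes of the lists and panel that are not listed are not analysed here. Promoters are RefSeq's.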

Additional observations from a re-analysis of the deposited data

Results flagged for a closer look

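Within groups of 4 libraries, the library farthest from the others was checked by its gap to the nearest library divided by the range of the group, for 54 genes and 39 lists. Chance alone marks about 1 in 20 groups, and 5 of 108 gene groups and 3 of 78 list groups stood out. In OVX, OVX 2 was far below the rest for Erbb3 (ratio 0.897) and Pgr (0.858). In Sham, Sham 3 was far above the rest for March7 (0.933) and far below for Cxcl2 (0.842) and for the mean log2 CPM of innate pattern recognition receptors (0.904). Sham 2 was far above the other Sham libraries for Cd4 (0.874) and was far from them for the junctional epithelium list (0.838), and Sham 1 for the list of osteoblasts, osteocytes and tooth cells (0.838). Most of these libraries are OVX 2 and Sham 3, which also stand apart over all genes.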

How the results depend on the processing

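Across 20 alternatives the count of genes past the test stayed at 0 except with DESeq2's Wald test, which called 24 of the genes (the cause was not tested), 13 of them among the 30 leading genes. The number at an unadjusted p under 0.05 moved more, from 1530 of 12680 genes tested. It was 845 of 12858 without Sham 3, 885 of 12837 without OVX 2 and 2140 of 12833 without OVX 3. In the libraries of higher other-strand share (an alternative chosen after seeing the data) it was 635 of 12973. There the list medians were 0.01 for neutrophils and 0.04 for inflammatory cytokines, against 0.27 for each, and 0.41 for interferon-induced genes, against 0.34. No label pairs the libraries. OVX and Sham libraries of the same replicate number had correlations of their deviations of 0.208, 0.285, −0.174 and 0.0782. The best correlations with another number were 0.173, 0.316, 0.286 and 0.384, so OVX 1 alone was closest to its own number. So few values cannot settle whether replicate numbers pair the libraries. With the replicate block 0 genes passed in edgeR's test, 1876 had an unadjusted p under 0.05 and the smallest adjusted p was 0.174. All 30 leading genes kept their sign in every alternative. Of 4599 values of 230 genes, 4510 stayed within 1 SE of the reported one, 72 moved farther and 14 passed with DESeq2. In all, 103 values of 35 genes had the other sign. In 3 of these the reported change was more than 1 SE from 0, all in the libraries of higher other-strand share: Icos (−0.0656), Il18 (0.00569) and Cxcl5 (−0.0391), and the cause was not tested. Of 780 list medians 4 moved by more than 1 SD of the list's mean log2 CPM between libraries, a wide tolerance, and 40 medians of 13 lists had the other sign. The mast cell median was −0.04 without OVX 3. Leaving out single libraries gave 0 calls between tissues too, as did the other alternatives of that test. The median half-width of the 95% intervals was 0.26 log2 units, which includes the spread between libraries as well as counting error.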

Other observations

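Gene groups outside the comparisons above showed few differences. Of 19 circadian clock genes 9 were higher and 10 lower in OVX, and 2 did not overlap, both lower (3.53% of all genes). They included the clock repressor Bhlhe40, at 228, 198, 228 and 248 CPM in OVX and 314, 248, 335 and 265 CPM in Sham (log2 change −0.37 ± 0.10). The core clock genes Per1 and Nr1d1 had 0.43 ± 0.36 and 0.13 ± 0.20 with wide overlap.

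Among 24 antimicrobial and epithelial defence genes 13 were higher and 11 lower. At an unadjusted p under 0.05 there were 4 on the higher and 1 on the lower side (5.06 and 7% of all genes). Apart from the 2 calprotectin genes (2.22% of all genes on the higher side) only the secretory protease inhibitor gene Slpi separated the groups (3.53% on the lower side). Its log2 change was −0.28 ± 0.13, and −0.14 without Sham 3. The iron-binding Lcn2 had 0.28 ± 0.32 and the acute phase gene Saa3 0.74 ± 0.72. Tissue factor (F3), which starts coagulation and is made by epithelium, had −0.36 ± 0.10 without overlap, whereas the complement genes of macrophages were higher. All 9 erythroid genes were higher, with a median of 0.33 and no member without overlap. None of these values passed adjustment over all genes with edgeR.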
